A study of Mus musculus with 10 samples.

Results

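The genes described here encode 36 subunits of ATP-dependent chromatin remodellers, 26 of the SWI/SNF complexes, to which ARID1A belongs, and 10 ATPases of the ISWI, CHD and INO80 families for comparison. They were chosen by name and not by a cut on a measured value, though with earlier results of these data known. Each was matched through its Ensembl identifier to 1 row among the 45706 genes of the count table. Uteri were collected at gestation day (GD) 3.5 from adult females mated with wildtype males, 5 of the genotype *Arid1a* f/f (controls) and 5 of the genotype *Ltf* iCre/+ *Arid1a* f/f (mutants). The mice of both groups had a mixed background of C57BL/6, 129S6/SvEvTac, 129P2/OlaHsd and 129S1/SvImJ and carried 2 floxed *Arid1a* alleles, and the mutants also carried a Cre recombinase expressed from 1 allele of the lactoferrin gene (*Ltf*), which is active in the endometrial epithelium and, per the study, may also be active in neutrophils and further myeloid cells. No group with the Cre but without floxed *Arid1a* was among the 10 uteri, so an effect of the *Ltf* iCre allele and an effect of the deletion cannot be told apart. Each library holds RNA of a part of 1 whole uterus, so fewer cells of a type and less RNA per cell cannot be told apart either.

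Chromatin remodellers use the energy of ATP to slide, eject or exchange nucleosomes, which opens or closes DNA for transcription, replication and repair. SWI/SNF complexes are assembled around one ATPase, SMARCA2 or SMARCA4, on a core of shared subunits, and further subunits make them canonical BAF (ARID1A or ARID1B with a DPF protein), PBAF (ARID2, PBRM1, BRD7, PHF10) or non-canonical BAF (BRD9). Many of the subunits come as paralogs that exclude each other in a complex, so the composition of the complexes can vary between cell types. In the uterus ARID1A is best known from tumours and from endometriosis, where its loss in the epithelium has been studied.

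Between 59296537 and 72702411 reads per uterus were counted on genes, and 35 of the 36 members passed the filter of a mean of at least 1 count per uterus. The exception was *Actl6b*, the neuronal paralog of *Actl6a*, with 3 counts in control replicate 5 and 0 counts in each of the other libraries. The unit used is CPM, a count divided by the TMM-scaled library size and expressed per 1e+06 counts. Genotypes were compared over all 25146 tested genes with edgeR's quasi-likelihood test and Benjamini-Hochberg adjustment, at a threshold of 0.05. Mutant replicates 1 and 5 stood apart in several markers. The summed CPM of 10 epithelial markers was highest in replicate 1, at 2340, and that of 6 neutrophil markers was 817 in replicate 5 against at most 12.3 in the other mutants. Counts are therefore also given without these 2 uteri. *Ltf*, the locus of the Cre, had between 2.22 and 11.7 CPM in controls and between 23.6 and 2830 CPM in mutants (log2 fold change 7.23, standard error 1.36, adjusted p = 0.00920).

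Of the 35 members tested, 3 differed between genotypes and all 3 were lower in mutants: *Smarca2*, a SWI/SNF ATPase, *Smarca1*, an ISWI ATPase, and *Arid1b*, the paralog of *Arid1a*. This share of 8.57% lay beside 9.70% of all tested genes, so that as a list the members were not called more often than other genes. By direction, 4.51% of all tested genes were lower and 5.19% higher. With DESeq2 5 members passed, *Actl6a* and *Bcl7a* (both higher) besides these 3, against 19.0% of the 21563 genes to which DESeq2 gave an adjusted p. In edgeR 7 of the 35 members had an unadjusted p under 0.05, against 6593 of all 25146 tested genes. Without mutant replicates 1 and 5, 2 members passed, *Smarca2* and *Smarca1*, against 9.41% of all genes. The genotypes did not overlap for 5 members, *Smarca2*, *Smarca1*, *Arid1b* and *Dpf1* (lower) and *Actl6a* (higher), which compares with 10.7% of all tested genes. Differences in most members were small. The median log2 fold change over the members was -0.01 (0.03 over all tested genes) and the median of its absolute size was 0.13 (0.31 over all tested genes). For 30 of the 35 members the 95% interval excluded a change by 1.5-fold in either direction, as it did for 33.1% of all tested genes. Many of all tested genes have far fewer counts, and neither this share nor the medians were matched for level.

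**Figure D1:**
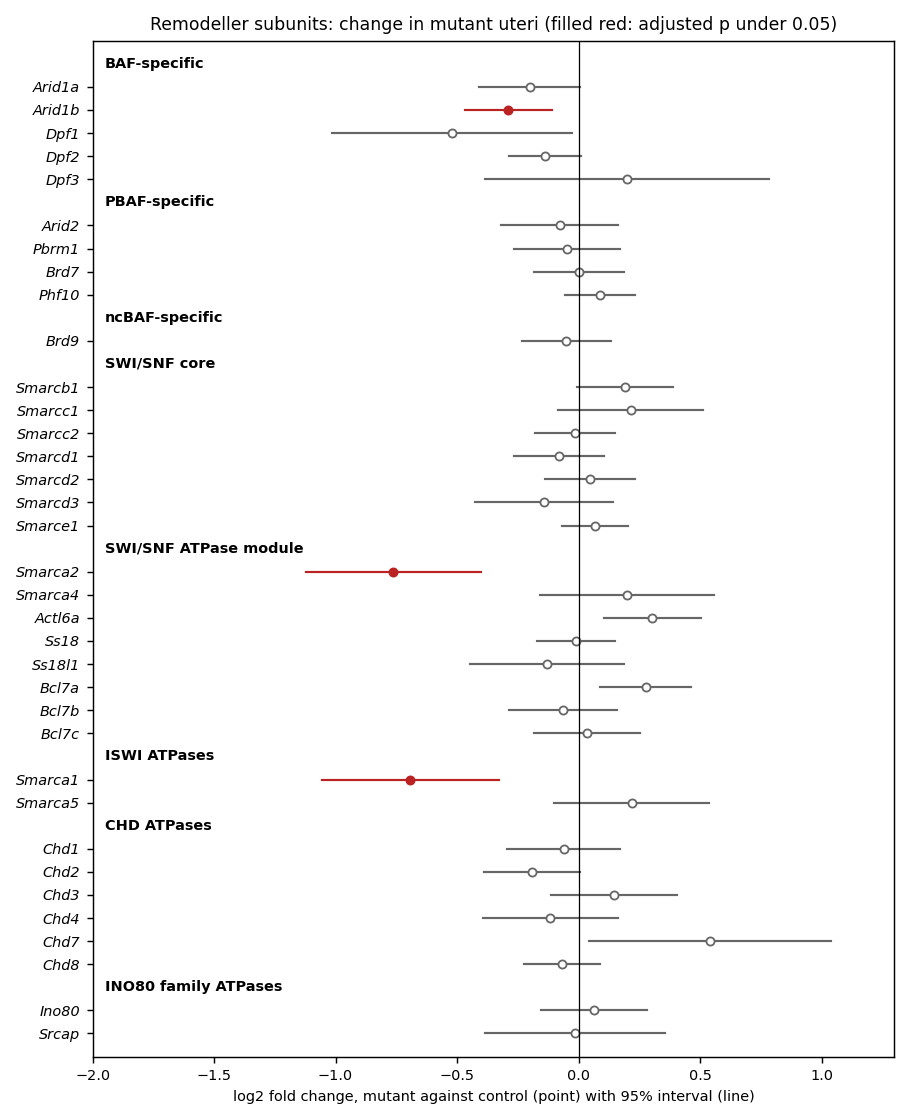
Log2 fold change of each tested member (points) with its 95% interval (lines), mutant against control uteri, n = 5 per genotype, grouped by complex. Filled red points passed an adjusted p of 0.05; these are *Arid1b* at -0.29, *Smarca2* at -0.76 and *Smarca1* at -0.69, and all other intervals are drawn in grey.

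Markers of several uterine cell types moved with the genotype, and their part in the differences of the members was not tested. Of 10 epithelial markers 7 passed and were higher, with a summed CPM between 807 and 1080 in controls and between 1220 and 2340 in mutants. Of 6 endothelial markers 5 passed and were lower (723 to 990 CPM in controls, 362 to 494 CPM in mutants). Of 9 stromal markers 2 passed and were lower, *Dcn* and *Vim*, while *Col1a1* and *Col1a2* had positive log2 fold changes (0.33 and 0.07). The sum of all 9, to which collagen genes gave the most, was 15300 to 22300 CPM in controls and 12800 to 22000 CPM in mutants. Of 5 gland markers 1 passed and was lower, *Foxa2* (means of 12.6 and 5.73 CPM). The sum of all 5 was 75.9 to 121 CPM in controls and 13.2 to 50.3 CPM in mutants. It also holds *Cxcl15* (means of 46.6 and 19.7 CPM), which did not pass. Of 6 T cell markers 3 and of 6 neutrophil markers 1 passed and were higher, and of 8 neuron and Schwann cell markers 2 passed and were lower. In edgeR 0 of 8 myometrial, 0 of 8 macrophage, 0 of 4 B cell and 0 of 6 NK cell markers passed, with 1, 4, 1 and 0 of them at an unadjusted p under 0.05 and 1, 2, 1 and 0 past the threshold in DESeq2. Over all 25146 tested genes 6593 had an unadjusted p under 0.05, and in DESeq2 19.0% of the 21563 genes with an adjusted p passed. Every marker was detected in at least 1 library.

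The targeted gene *Arid1a* (ENSMUSG00000007880, chromosome 4 of GRCm38, 133679008 to 133756769, minus strand) encodes the DNA-binding ARID subunit of canonical BAF. It had 251, 210, 213, 192 and 197 CPM in control replicates 1 to 5 and 208, 191, 179, 182 and 165 CPM in mutant replicates 1 to 5. Of the mutants, 4 lay below every control and replicate 1 lay within the control range. The means were 213 ± 22.9 and 185 ± 15.9 CPM (SD, n = 5 each), so that the mutants held 87.0% of the control level (log2 fold change -0.20, 95% interval -0.41 to 0.00). The difference did not pass the threshold over all genes (edgeR adjusted p = 0.201, unadjusted p = 0.0544). An exact permutation test of this gene alone gave a two-sided p of 0.0397, though the groups overlapped. The log2 fold change lay between -0.25 and -0.14 with each uterus left out. Counts were summed over the whole gene, so transcripts that lack the floxed exons but keep others are included in these values.

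The paralog *Arid1b* (ENSMUSG00000069729, chromosome 17, 4994332 to 5347656), which takes the place of ARID1A in a separate set of BAF complexes, had 165, 147, 147, 140 and 140 CPM in controls and 108, 136, 121, 126 and 115 CPM in mutants. Every mutant lay below every control, with replicate 1 lowest. Its mean fell from 148 ± 10 CPM (SD, n = 5) in controls to 121 ± 10.8 CPM (SD, n = 5) in mutants. On the log2 scale this was -0.29 ± 0.08 (standard error, adjusted p = 0.0473), with an exact permutation p of 0.00794, below which a design of this size cannot go. The call is narrow. It was lost without mutant replicates 1 and 5 (log2 fold change -0.21, adjusted p = 0.134) and without any single uterus other than mutant replicate 2. The call was also lost without a filter on low counts (adjusted p = 0.0608) and with the replicate number as a block (adjusted p = 0.113). That block pairs uteri that no label pairs. With it the log2 fold change was -0.29, and over all genes 1704 passed instead of 2438. The log2 ratio of *Arid1b* to *Arid1a*, each scaled to the length of its exons, was -0.66 ± 0.06 in controls and -0.75 ± 0.19 in mutants (SD, n = 5 each), and the groups overlapped. Mutant replicate 1 alone lay apart, at -1.08.

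Of the DPF subunits, which read modified histone tails in canonical BAF, *Dpf2* was the abundant one. It had 94.1 ± 3.80 CPM in controls and 85.5 ± 5.35 CPM in mutants (SD, n = 5 each; log2 fold change -0.14, adjusted p = 0.220). *Dpf1*, known from neurons, had 7.66, 8.07, 8.04, 7.78 and 7.58 CPM in controls and 4.19, 7.38, 6.98, 5.75 and 2.99 CPM in mutants. All controls were close to each other, all mutants were below them, and mutant replicates 1 and 5 were lowest. The log2 fold change of *Dpf1* was -0.52 (standard error 0.23) and did not pass the threshold (adjusted p = 0.169, exact permutation p = 0.00794). The summed CPM of 8 neuron and Schwann cell markers lay between 17.8 and 20.5 in controls and between 13.1 and 17.5 in mutants, and the part of these cells in the *Dpf1* values was not tested. *Dpf3*, a subunit known from muscle, was detected at only 1.22 ± 0.20 and 1.41 ± 0.53 CPM (adjusted p = 0.696).

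The PBAF subunits *Arid2*, *Pbrm1*, *Brd7* and *Phf10* had log2 fold changes between -0.08 and 0.09, and 0 of the 4 passed in edgeR, in DESeq2 or at an unadjusted p of 0.05. *Pbrm1*, a subunit with several bromodomains, was the most abundant of them, at 208 ± 18.4 CPM in controls and 201 ± 23.8 CPM in mutants (SD, n = 5 each; 95% interval of the log2 fold change -0.27 to 0.17). *Arid2*, the ARID subunit of PBAF, had 134 ± 15.8 and 127 ± 17.2 CPM, and *Brd7* and *Phf10* had intervals of -0.18 to 0.19 and -0.05 to 0.23. Of the exon bases of *Phf10*, 9.56% are shared with *1600012H06Rik* on the opposite strand. *Brd9*, the bromodomain subunit of non-canonical BAF, had 58.5 ± 3.05 and 56.5 ± 5.91 CPM (interval -0.23 to 0.13). All 5 intervals excluded a change by 1.5-fold.

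The core subunits are shared between forms of the complex, though not every form holds each of them. Of *Smarcb1*, *Smarcc1*, *Smarcc2*, *Smarcd1*, *Smarcd2*, *Smarcd3* and *Smarce1*, 0 of 7 passed in edgeR, in DESeq2 or at an unadjusted p of 0.05, the log2 fold changes ran from -0.14 to 0.21, and all 7 intervals excluded a change by 1.5-fold. *Smarcb1*, a core subunit that contacts the nucleosome, had 63.7 to 80.5 CPM in controls (median 75.6) and 77.0 to 99.5 CPM in mutants (median 81.9), with 3 mutants above every control (log2 fold change 0.19, adjusted p = 0.210, exact permutation p = 0.0397). The scaffold subunit *Smarcc1* had 178, 184, 188, 172 and 148 CPM in controls and 277, 192, 170, 168 and 204 CPM in mutants, of which replicate 1 was well above all other uteri (log2 fold change 0.21, adjusted p = 0.358). Its paralog *Smarcc2* showed no such spread, at 187 ± 10.8 and 185 ± 12.1 CPM (SD, n = 5 each; interval -0.18 to 0.15). Among the SMARCD paralogs *Smarcd2* was the most abundant, at 135 ± 7.03 CPM in controls against 41.8 ± 4.00 for *Smarcd1* and 32.3 ± 2.31 for *Smarcd3*. The value of *Smarcd3*, known as a cardiac and muscle form, is uncertain, since 48.2% of its exon bases are shared with *Chpf2* on the opposite strand and whether reads were counted by strand is not stated in the sources used here.

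*Smarca2* (ENSMUSG00000024921, chromosome 19, 26605050 to 26778322, plus strand) encodes BRM, and *Smarca4* (ENSMUSG00000032187, chromosome 9, 21616169 to 21704230, plus strand) encodes BRG1, and a SWI/SNF complex holds one or the other. *Smarca2* had 409, 378, 331, 336 and 330 CPM in control replicates 1 to 5 and 161, 281, 225, 234 and 150 CPM in mutant replicates 1 to 5. Every mutant was below every control, and replicates 1 and 5 were at 45.2% and 42.0% of the control mean while replicate 2 was at 78.7%. Its mean fell from 357 ± 35.5 CPM (SD, n = 5) in controls to 210 ± 54.3 CPM (SD, n = 5) in mutants. On the log2 scale this was -0.76 ± 0.16 (standard error, adjusted p = 0.0163, exact permutation p = 0.00794). *Smarca2* was the only member that passed under every alternative run, at an adjusted p of at most 0.0433. Without mutant replicates 1 and 5 its log2 fold change was -0.53 (adjusted p = 0.0137), and the range with single uteri left out was -0.89 to -0.66. Its reads are little shared, since 0.0856% of the 50-base windows of its transcripts occur in a transcript of another gene.

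*Smarca4* had 198, 204, 219, 194 and 148 CPM in controls and 320, 216, 175, 192 and 203 CPM in mutants. Replicate 1 was the highest of all 10 uteri, and the other 4 mutants lay within the control range. The log2 fold change of *Smarca4* was 0.20 (95% interval -0.16 to 0.56, adjusted p = 0.492), and 0.01 without mutant replicates 1 and 5. On the scale of levels per exon length, *Smarca2* stood at 0.844 of *Smarca4* in controls and at 0.429 in mutants. Within single uteri the log2 ratio of *Smarca2* to *Smarca4* was -0.09, -0.25, -0.55, -0.35 and 0.02 in controls and -2.13, -0.76, -0.78, -0.85 and -1.58 in mutants. The groups did not overlap, and mutant replicates 2, 3 and 4 were nearer to the controls than replicates 1 and 5. Replicate 1 combined a low *Smarca2* with a high *Smarca4* value, whereas in replicate 5 *Smarca2* was low and *Smarca4* was at 105% of the control mean.

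**Figure D2:**
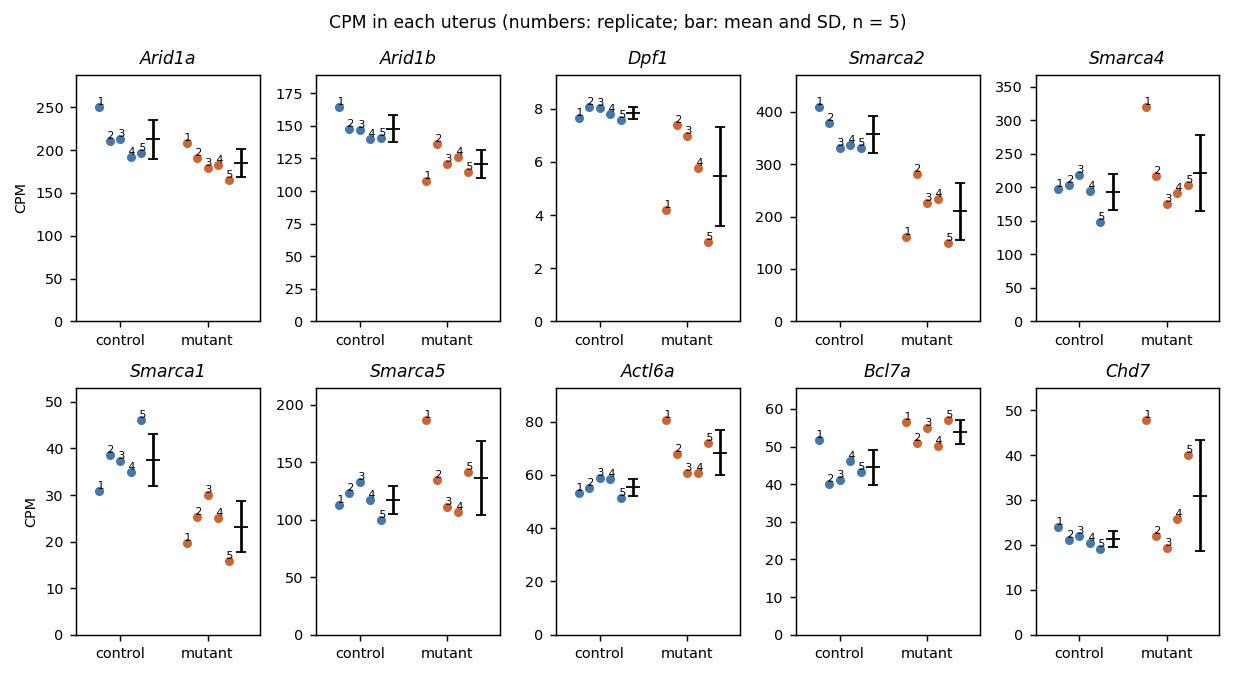
CPM in each uterus for 10 members, with the replicate number beside each point and the mean and SD (n = 5) as a black bar. *Smarca2*, *Smarca1*, *Arid1b* and *Dpf1* lie lower in all mutants than in any control and *Actl6a* lies higher, while *Smarca4*, *Smarca5* and *Chd7* are highest in mutant replicate 1.

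The windows of 140 bases from 250 to 111 bases before the RefSeq start of these paralogs (GRCm38.p6, plus strand) are shown because the ratio of this pair differed most between the genotypes among the 10 pairs of related members compared. The gene positions given above come from another annotation, GENCODE. By that annotation the *Smarca2* window ends directly before the gene start (26605050), so the 2 windows lie at unlike distances from the GENCODE starts. Capitals mark CG dinucleotides, of which the *Smarca2* window holds 16 and the *Smarca4* window 9, against a median of 3 in windows at the same place in all 32851 promoters of the RefSeq table. The GC box letters GGGCGG occur, on either strand, 1 time in the *Smarca2* and 3 times in the *Smarca4* window and in 15.3% of all these windows. The matches describe the sequence only.
Smarca2, chr19:26604910-26605049: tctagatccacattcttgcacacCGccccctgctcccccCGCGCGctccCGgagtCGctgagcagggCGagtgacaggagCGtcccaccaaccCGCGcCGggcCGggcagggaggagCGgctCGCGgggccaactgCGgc
Smarca4, chr9:21615919-21616058: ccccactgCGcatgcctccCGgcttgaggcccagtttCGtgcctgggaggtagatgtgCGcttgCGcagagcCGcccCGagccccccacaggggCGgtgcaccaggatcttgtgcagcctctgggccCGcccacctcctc

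The other parts of the ATPase module hold actin-related and BCL7 subunits. *Actl6a*, an actin-like subunit of progenitor and dividing cells, had 53.3, 54.9, 58.7, 58.5 and 51.5 CPM in controls and 80.6, 68.0, 60.8, 60.7 and 71.9 CPM in mutants. All mutants were above all controls, with replicates 3 and 4 just outside the control range. The log2 fold change of *Actl6a* was 0.30 (standard error 0.09, adjusted p = 0.0559, exact permutation p = 0.00794), with an adjusted p of 0.0297 in DESeq2, 0.0397 with edgeR's own filter and 0.0451 with upper-quartile scaling. Without mutant replicates 1 and 5 it was 0.19 (adjusted p = 0.162), and 11.6% of its exon bases are shared with *Mrpl47* on the opposite strand. *Bcl7a* had 51.7, 40.0, 41.2, 46.1 and 43.4 CPM in controls and 56.5, 51.0, 54.8, 50.1 and 57.1 CPM in mutants, of which 3 were above every control (log2 fold change 0.28, standard error 0.09, adjusted p = 0.0637, and 0.0315 in DESeq2). Its paralogs *Bcl7b* and *Bcl7c* had log2 fold changes of -0.06 and 0.04 with intervals inside -0.29 to 0.25. *Ss18*, the subunit fused to SSX in synovial sarcoma, had 110 ± 5.32 and 109 ± 8.43 CPM (SD, n = 5 each; interval -0.17 to 0.15), and its neuronal paralog *Ss18l1* had 15.2 ± 1.80 and 13.9 ± 2.59 CPM (interval -0.45 to 0.19).

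In the ISWI family, whose ATPases space nucleosomes evenly, 1 of 2 members passed. *Smarca1* (SNF2L; ENSMUSG00000031099, chromosome X, 47809368 to 47892974) had 30.8, 38.6, 37.2, 34.9 and 46.1 CPM in controls and 19.7, 25.3, 30.0, 25.1 and 15.9 CPM in mutants. Every mutant was below every control, though mutant replicate 3 lay close to control replicate 1, and replicates 1 and 5 were lowest. Its mean fell from 37.5 ± 5.62 CPM (SD, n = 5) in controls to 23.2 ± 5.47 CPM (SD, n = 5) in mutants. On the log2 scale this was -0.69 ± 0.17 (standard error, adjusted p = 0.0254, exact permutation p = 0.00794). Without mutant replicates 1 and 5 it was -0.48 (adjusted p = 0.0386), and the call was lost by a small margin with the replicate block (adjusted p = 0.0533), without control replicates 2, 3 or 5 (adjusted p = 0.0595, 0.0572 and 0.0586) and without mutant replicate 1 (adjusted p = 0.0503). *Smarca5* (SNF2H), the more abundant paralog, had 113, 123, 133, 117 and 99.8 CPM in controls and 187, 135, 111, 107 and 141 CPM in mutants, with replicate 1 highest (log2 fold change 0.22, interval -0.10 to 0.54, adjusted p = 0.385). The value of *Smarca5* is uncertain, since 28.2% of its 50-base windows occur in transcripts of other genes, with *Gm13135* alone sharing 17.6%. The log2 ratio of *Smarca1* to *Smarca5* per exon length was -1.30 ± 0.31 in controls and -2.21 ± 0.61 in mutants (SD, n = 5 each). The groups were separated only narrowly, with the highest mutant at -1.54 and the lowest control at -1.53. The uncertainty of *Smarca5* applies to this ratio as well.

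**Figure D3:**
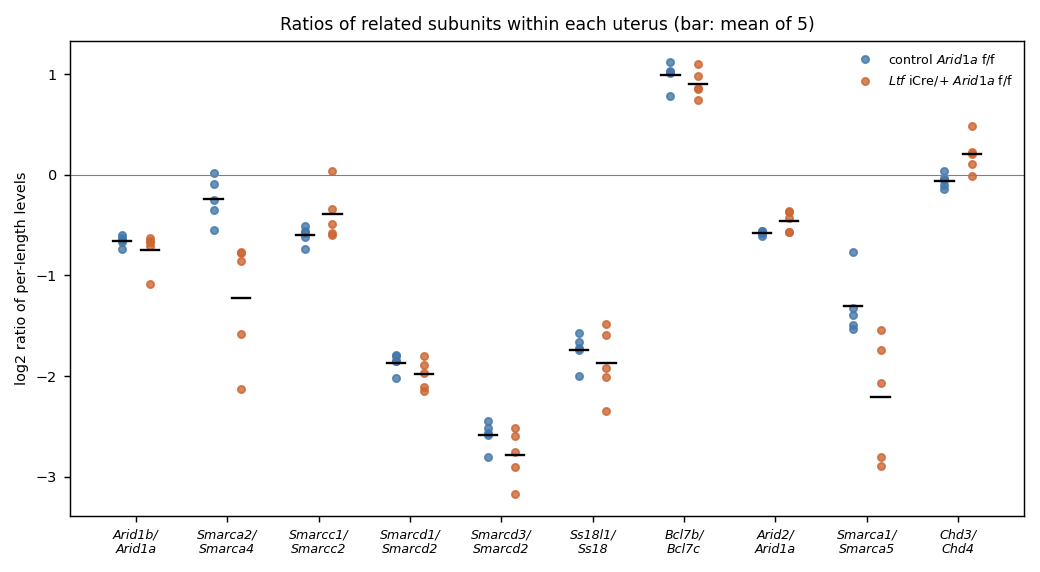
Log2 ratio of the levels per exon length of related members within each uterus, with 5 control and 5 mutant points per pair and a black bar at each mean. The ratios of *Smarca2* to *Smarca4* and of *Smarca1* to *Smarca5* are lower in every mutant than in any control, and the other 8 pairs overlap. For *Smarca1* to *Smarca5* the margin is narrow (-1.54 in the highest mutant, -1.53 in the lowest control).

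Of the 6 CHD ATPases 0 passed in edgeR or in DESeq2, and 1, *Chd7*, had an unadjusted p under 0.05, as had 6593 of all 25146 tested genes. *Chd3* and *Chd4*, the ATPases of the NuRD complex, were the most abundant members, at 512 ± 41.6 and 507 ± 50.0 CPM in controls and 566 ± 91.6 and 468 ± 82.0 CPM in mutants (SD, n = 5 each). The log2 fold changes were 0.14 for *Chd3* and -0.12 for *Chd4*, and their ratio per exon length moved from -0.06 ± 0.07 to 0.20 ± 0.18 on the log2 scale, with an overlap between the groups. *Chd7*, the gene of CHARGE syndrome, had 24, 21, 21.9, 20.4 and 19.1 CPM in controls and 47.8, 21.9, 19.2, 25.8 and 40.0 CPM in mutants. Replicates 1 and 5 stood at 225% and 188% of the control mean and replicates 2, 3 and 4 close to the controls. The log2 fold change of *Chd7* was 0.54 (standard error 0.23, adjusted p = 0.158), and 0.07 without these 2 uteri. *Chd1*, *Chd2* and *Chd8* had log2 fold changes of -0.06, -0.19 and -0.07. The lowest p among them was that of *Chd2* (adjusted p = 0.203), of whose exon bases 18.4% are shared with *1810026B05Rik* on the same strand.

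In the INO80 family, which acts on nucleosomes with the histone variant H2A.Z, 0 of 2 ATPases passed in edgeR, in DESeq2 or at an unadjusted p of 0.05. *Ino80* had 46.3 ± 2.00 CPM in controls and 48.4 ± 7.18 CPM in mutants (SD, n = 5 each; log2 fold change 0.06, interval -0.16 to 0.28). *Srcap* was listed at 4.69 ± 0.59 and 4.64 ± 0.88 CPM (interval -0.38 to 0.35). This level is uncertain, since 61.7% of the exon bases of *Srcap* are shared with the gene model *Gm42715* on the same strand, and STAR counts a read only where it falls on a single gene.

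The order of the members was read from control counts per kilobase of exon, scaled to the same total over all genes in every library. *Chd4* (226 ± 26.7) and *Chd3* (217 ± 20.6) led, followed by *Smarcd2* (135 ± 7.99), *Smarcc2* (120 ± 9.37), *Smarca4* (107 ± 16.5) and *Smarca2* (89.4 ± 10.1). *Arid1a* stood at 66.3 ± 8.55, above *Arid2* (44.5 ± 6.26) and *Arid1b* (42.0 ± 3.72). At the lower end were *Ss18l1* (12.5 ± 1.51), *Chd7* (5.52 ± 0.60), *Dpf1* (5.2 ± 0.21), *Srcap* (1.06 ± 0.14, or 3.21 over the exon bases it does not share) and *Dpf3* (1.04 ± 0.17). Few steps in this order were clear. Only 5 of the 34 pairs of neighbours were separated by more than the SDs of both, so the order within the middle of the list is not resolved. In mutants *Smarca2* stood at 50.3 ± 12.6 on the same scale (SD, n = 5), below *Smarcc1* (88.0 ± 18.6) and *Pbrm1* (77.7 ± 8.64), from which it did not differ by more than the SDs in controls.

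**Figure D4:**
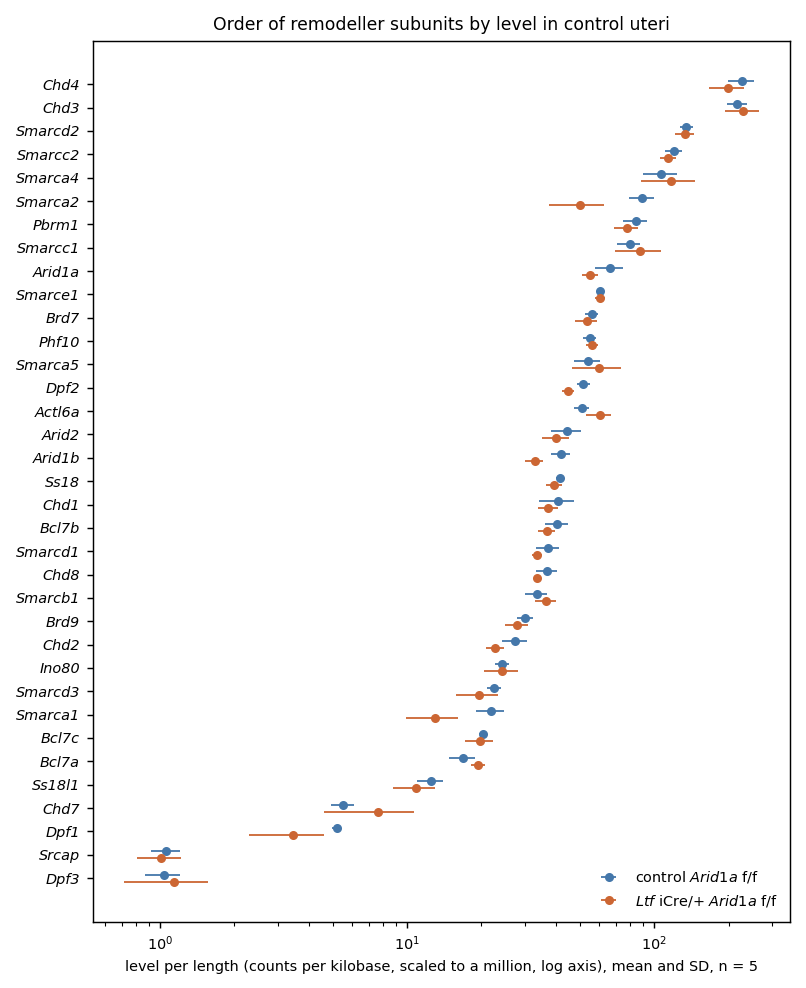
Counts per kilobase of exon scaled to the same total in every library (log axis, mean and SD, n = 5 per genotype) for the 35 tested members, ordered by the control mean. Control means run from 1.04 for *Dpf3* to 226 for *Chd4*, and *Smarca2* and *Smarca1* show the clearest gaps between genotypes.

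The members varied little between control uteri. The median coefficient of variation of their CPM was 8.68% (from 2.81% for *Dpf1* to 16.4% for *Dpf3*), against 11.2% over the 14574 tested genes in the same range of control CPM. Between mutants the spread was wider. The SD of log2 CPM was larger in mutants than in controls for 29 of 35 members (82.9%), against 68.5% of all tested genes. Those genes were not limited to the members' range of CPM. The widest mutant SDs were those of *Chd7* (0.56), *Dpf1* (0.54), *Dpf3* (0.51), *Smarca2* (0.38) and *Smarca1* (0.36). In *Chd7*, *Dpf1*, *Smarca2* and *Smarca1*, replicates 1 and 5 lay furthest from the controls. Mutant replicate 1 held the highest of the 10 values of 12 members, *Smarca4*, *Smarca5*, *Smarcb1*, *Smarcc1*, *Smarcd2*, *Actl6a*, *Ss18*, *Brd7*, *Dpf3*, *Chd3*, *Chd4* and *Chd7*, and the lowest value of 4 members. Control replicate 1 held the highest value of 9 members, control replicate 5 the lowest of 9 and mutant replicate 5 the lowest of 8. Such shares were not computed over all tested genes.

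**Figure D5:**
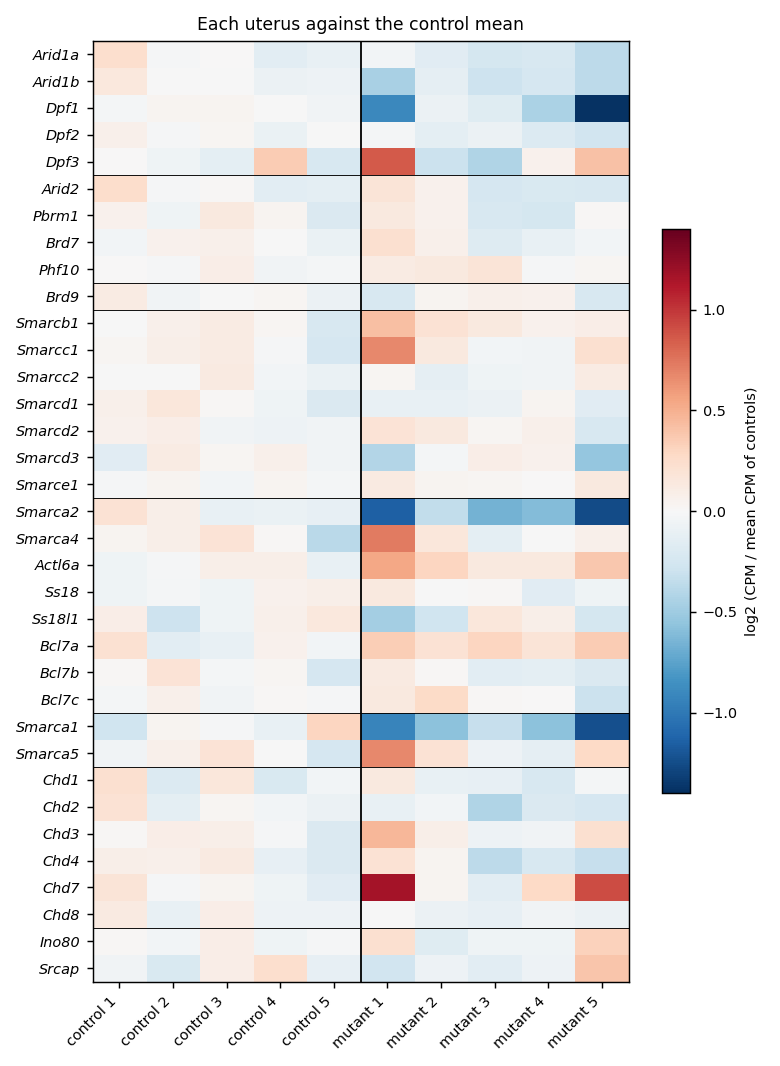
Log2 of the CPM of each tested member in each uterus over the mean CPM of the 5 controls, blue for lower and red for higher, with lines between the complexes. Mutant replicates 1 and 5 show the deepest blue for *Smarca2*, *Smarca1* and *Dpf1* and the deepest red for *Chd7*.

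A list of 68 further subunits and ATPases was compared in the same way, and 5 of the 68 passed (7.35%, against 9.70% of all tested genes), 4 higher and 1 lower. *Bicral*, a subunit that defines non-canonical BAF together with BRD9, fell from 54.0 ± 4.27 to 43.5 ± 3.16 CPM (SD, n = 5 each; log2 fold change -0.31, adjusted p = 0.0343), and its paralog *Bicra* had 23.4 ± 1.97 and 20.9 ± 1.07 CPM (adjusted p = 0.280). *Bcl11b*, a SWI/SNF-associated transcription factor of T cells, rose from 1.68 ± 0.23 to 5.54 ± 2.28 CPM (log2 fold change 1.72, adjusted p = 0.00455). Beside it, the summed CPM of 6 T cell markers lay between 12.7 and 16.0 in controls and between 23.5 and 72.2 in mutants. Among other SNF2 family ATPases, *Hells*, which is needed for DNA methylation, rose from 37.7 ± 6.29 to 76.0 ± 18.9 CPM (log2 fold change 1.01, adjusted p = 0.00480) and *Rad54l*, a recombination factor, from 14.3 ± 2.09 to 23.7 ± 6.21 CPM (log2 fold change 0.73, adjusted p = 0.0256). *Pole3*, a histone-fold subunit shared by the ISWI complex CHRAC and DNA polymerase epsilon, rose from 53.2 ± 3.71 to 66.9 ± 8.39 CPM (log2 fold change 0.33, adjusted p = 0.0487). The summed CPM of 15 proliferation markers, of which 2 passed and were higher, lay between 954 and 1460 in controls and between 1130 and 2230 in mutants, with replicates 1 and 2 highest. Of 10 further NuRD subunits 0 passed in edgeR or in DESeq2 and 2 had an unadjusted p under 0.05. Of 27 subunits of INO80, SRCAP and TIP60 0 passed in edgeR, 5 had an unadjusted p under 0.05 and 3 passed in DESeq2. These counts compare with 6593 of all 25146 tested genes at an unadjusted p under 0.05. In DESeq2 19.0% of the 21563 genes with an adjusted p passed. Without mutant replicates 1 and 5, 4 of the 68 partners passed, against 9.41% of all genes.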

How the data were processed

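The authors prepared mRNA libraries from the uteri of 10 mice (GD 3.5) and obtained paired reads of 50 bases, which were trimmed with cutadapt 1.18 and Trim Galore 0.6.4, aligned to GRCm38 with STAR 2.7.3a and counted per gene with its GeneCounts mode. The deposited values are whole-number counts per Ensembl gene without normalization. The annotation release and strand setting are not given in the sources used here. Intervals rest on the spread between the 5 uteri per genotype, which includes counting error and which edgeR moderates towards the trend over all genes.

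Symbols, positions, exon lengths and overlaps came from GENCODE M21 (GRCm38), which held 45143 of 45706 identifiers. Following the study's filter, genes averaging 1 count or more per library were tested in R 4.3.3 with edgeR 4.0.16 (TMM, quasi-likelihood, genotype only) and, as an alternative, DESeq2 1.42.0. Single genes were also tested over the 252 arrangements of 5 against 5 on log2 CPM (prior count 2). Levels between genes were compared per kilobase of exon. The edgeR procedure was tested on simulated counts with 200 changed genes, whose changes were set larger than those of most members. The outcome is not reported here, and no call of a member rests on it. Figures were drawn with matplotlib 3.10.9.

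All 36 members were named. Values in every uterus are given for *Arid1a*, for members past the threshold or without overlap, and for some members that the results turn on, chosen after their values were seen, and of the partners those past the threshold are named. The members, the partner list and the lists of markers (proliferation, epithelium, gland, stroma, myometrium, macrophage, neutrophil, T cell, B cell, NK cell, endothelium, neuron and Schwann cell) were chosen with earlier results of these data known. Same-numbered uteri were not paired by any label.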

Additional observations from a re-analysis of the deposited data

Results flagged for a closer look

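In 70 sets of 5 uteri (35 members, 2 genotypes), 2 held a uterus far from the other 4 by Dixon's criterion, and chance alone gives about 1 in 20. *Smarca4* had 320 CPM in mutant replicate 1, the highest of the mutants, and *Srcap* had 6.15 CPM in mutant replicate 5, the highest of the mutants.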

How the results depend on the processing

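*Smarca2* passed under every alternative run (log2 fold change -0.89 to -0.53), and *Arid1a* passed under none (-0.25 to -0.14, exact permutation p = 0.0397 with either prior count). Of the members 3 passed, 5 with DESeq2, 1 with the replicate block and 1 to 3 with single uteri left out. Of the 68 partners 5 passed, 12 with DESeq2, 2 with the replicate block and 2 to 4 with single uteri left out. With DESeq2 19.0% of the 21563 genes with an adjusted p passed. Over all genes 2438 passed, 1704 with the replicate block and 1204 to 2381 with single uteri left out. The cause of these shifts was not tested. Same-numbered uteri share only a number. The correlations of their deviations lay between -0.0327 and 0.0842, and 2 of 5 controls correlated best with the mutant of their own number. *Smarca1*, *Arid1b*, *Actl6a* and *Bcl7a* had adjusted p-values on both sides of the threshold. *Bcl7a* also passed without control replicate 1 (0.0321), and *Actl6a* without mutant replicate 3 (0.0459) or 4 (0.0490).

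None of the members that passed changed sign under any alternative run, but several that did not pass did. With single uteri left out the log2 fold change lay between -0.0239 and 0.321 for *Dpf3*, -0.0485 and 0.0124 for *Smarcc2*, -0.0631 and 0.0443 for *Brd7*, -0.0551 and 0.0254 for *Ss18*, -0.0322 and 0.110 for *Bcl7c*, -0.0078 and 0.113 for *Ino80*, and -0.137 and 0.0509 for *Srcap*. Without mutant replicates 1 and 5 it was -0.20 for *Dpf3*, -0.0655 for *Brd7*, 0.0023 for *Ss18l1*, 0.0557 for *Brd9*, 0.0414 for *Smarcd3*, -0.0120 for *Chd3* and -0.10 for *Ino80*. *Brd7*, at 0.0019, was also negative with the replicate block (-0.0038) and upper-quartile scaling (-0.0121). Counts per mutant uterus were low for *Dpf3* (56 to 141), *Dpf1* (207 to 437) and *Srcap* (248 to 425), and the part of depth in their spread was not tested.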
